A study of Mus musculus with 6 samples.

Results

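The protein components of the small (decoding) subunit of the cytosolic ribosome were followed as mRNAs in naive CD4 T cells of mice with and without a T cell deletion of Cmtr1. The set holds 27 protein-coding genes, Rpsa, Fau and 25 genes named Rps, taken by symbol from a list of names out of 46983 genes in the count tables. The rule itself uses no measured value, but the set was proposed with earlier results of these data known. All 27 passed the filter on low counts. Rps27 and Rack1, of the same subunit, are outside the set and are given for comparison.

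A ribosome needs each of these proteins in about equal number, on a backbone of small subunit rRNA, to bind mRNA, find the start codon and check each codon against its tRNA. Ribosomal protein mRNAs are abundant in resting lymphocytes and typically begin with a cytosine followed by a run of pyrimidines, the 5' terminal oligopyrimidine (TOP) tract, through which LARP1 and mTORC1 signalling govern their translation and stability. CMTR1 acts at the same end of the mRNA, adding a 2'-O-methyl group to the nucleotide with which transcription begins.

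Male mice homozygous for floxed Cmtr1 alleles (Cmtr1 fl/fl) supplied every library. In 2 control libraries the mice lacked the CD4-Cre transgene, and in 4 libraries, labelled Cmtr1 cKO, they carried it, which recombines floxed alleles in developing T cells. Cells were sorted from lymph nodes as TCRb+, CD4+, CD44- and DAPI- among other markers, and total RNA depleted of rRNA was sequenced. The ages of the mice, the deleted exon and whether each library is a separate animal were not stated in the sources read. The p-values therefore describe the spread between libraries, part or all of which may be technical.

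Gene counts ranged from 9513874 (Cmtr1 cKO 3) to 11949838 (control 1) a library, and the 27 members together held 132701 to 320114 of them. In no library did a member have fewer than 2092 counts. The targeted gene, Cmtr1 (ENSMUSG00000024019.17), was at 11.2 and 11.4 CPM (counts relative to library size, adjusted by TMM factors) in controls 1 and 2 and at 16.0, 19.8, 14.6 and 7.57 CPM in Cmtr1 cKO 1 to 4, which was not called (log2 fold change 0.36 ± 0.31, SE, edgeR adjusted p = 0.461). Since 36.3% of its exon bases are shared with the same-strand genes Gm28043 and Gm28052, and the deleted exon is not known, its level is no check of the labels, and directions are those of the libraries as labelled. The T cell and naive markers fit the label: all 16 (among them Cd3e, Cd4 and Lef1) were detected in every library and summed to 9260 to 9288 CPM in the controls and 8475 to 9929 CPM in Cmtr1 cKO. Of these, Ccr7, the homing receptor of naive cells, was called lower (log2 fold change -0.36, edgeR adjusted p = 0.0433) and the other 15 were not called. The 7 markers of NK and cytotoxic cells summed to 60.4 and 46.9 CPM in controls 1 and 2 and 13.4 to 16.6 CPM in Cmtr1 cKO, with the defining NK markers Ncr1 and Klrb1c at 0.37 CPM or less in each library. A single one of the 7 held most of these sums, with 47.7 and 36.2 CPM in controls 1 and 2 and 8.42 to 12.0 CPM in Cmtr1 cKO. Of the 4 that passed the filter 3 were called lower, beside 6.77% of all genes tested, and the remaining one was not called. The part of these markers in the results was not tested. Both CD8 markers together were at 28.7 and 23.6 CPM against 17.0 to 21.3 CPM, the 6 B cell markers at 70.7 and 87.2 CPM against 42.1 to 74.6 CPM, and the 6 myeloid markers at 17.1 and 4.66 CPM against 3.10 to 4.54 CPM. Of the B cell list Cd74 was called lower (-0.74, edgeR adjusted p = 0.0231). The 4 regulatory T cell markers summed to 104 and 153 CPM in controls 1 and 2 and 119 to 163 CPM in Cmtr1 cKO, and none was called. In Cmtr1 cKO 3 a gene annotated as ribosomal RNA, CT010467.1, held 4.77% of gene counts, against at most 0.0284% elsewhere.

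The sequence around the start of transcription is shown first, because it is where the TOP tract and the CMTR1 target nucleotide lie. RefSeq promoter sequences (GRCm38.p6) matched 23 of the 27 members; Rps14, Rps20, Rps27a and Rps29 are named only. Each line gives 30 bases, 5' to 3' on the gene's strand, of which base 16 is the annotated first transcribed base, and capitals mark the longest run of C and T in that window.
Fau: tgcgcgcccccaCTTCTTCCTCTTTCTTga
Rps10: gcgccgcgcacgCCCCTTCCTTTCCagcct
Rps18: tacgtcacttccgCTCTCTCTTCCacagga
Rps6: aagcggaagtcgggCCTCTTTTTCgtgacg
Rps21: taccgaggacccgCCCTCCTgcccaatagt
Rps12: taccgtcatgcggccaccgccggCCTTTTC
Rps26: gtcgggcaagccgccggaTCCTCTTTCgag
Rps19: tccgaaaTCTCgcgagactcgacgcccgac
The first 5 have a pyrimidine run across the annotated start and the next 2 have one a few bases into the transcript. Rps19, the member that fell least, had no run longer than 4 bases in this window. The same was true of Rps4x, which is not shown and had a log2 fold change of -1.21. The promoter set lists 3 promoters for Rps19 and 2 each for Rps21 and Rps24. Only the first listed was examined, so runs at the other annotated starts of these genes are not known. The windows lie at chr19:6057932-6057961 (Fau, plus strand), chr17:27635230-27635259 (Rps10, minus), chr17:33955651-33955680 (Rps18, minus), chr4:86857353-86857382 (Rps6, minus), chr2:180257364-180257393 (Rps21, plus), chr10:23787195-23787224 (Rps12, minus), chr10:128626492-128626521 (Rps26, minus) and chr7:24884577-24884606 (Rps19, plus).

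A C at the annotated start followed by at least 4 bases that are all C or T, read on the gene's strand only, was present in 6 of the 23 members (26.1%): Fau, Rps6, Rps10, Rps15a, Rps18 and Rps21. The same was true of 2.49% of 27025 RefSeq promoters taken once a gene. A run of at least 6 C or T anywhere in the 30 bases was found in 13 of the 23 (56.5%), in 19 of 34 large subunit genes (55.9%) and in 29.1% of all promoters. These shares rest on annotated starts, which may lie some bases from the starts used in T cells. The fold changes of the members with and without these runs overlapped: the 6 with a tract at the start had a median log2 fold change of -0.94 (-1.34 to -0.71) and the other 17 had -0.98 (-1.55 to -0.57). The 13 with a run of at least 6 in the window had -0.98 (-1.55 to -0.70) and the 10 without had -0.95 (-1.21 to -0.57).

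All 27 small subunit protein mRNAs were lower in the Cmtr1 cKO libraries. Their summed level went from 29022 ± 1462 CPM (SD, n = 2) in the controls to 14575 ± 2261 CPM (SD, n = 4). By the quasi-likelihood test of edgeR, adjusted by Benjamini-Hochberg over 12748 genes, 27 of 27 fell and 0 rose, while 6.77% of all genes tested were called lower and 4.66% higher. Log2 fold changes ran from -1.55 (Rps12) to -0.57 (Rps19) with a median of -0.97, against a median of -0.00047 over all genes tested, and adjusted p-values from 2.42e-05 (Rps21) to 0.00895 (Rps19). CPM are relative to each library's own RNA, and in such bulk libraries a loss of cells of 1 kind and a loss of RNA per cell cannot be told apart. For every member the 4 Cmtr1 cKO libraries lay below both controls, which held for 20.8% of all genes tested.

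**Figure D1:**
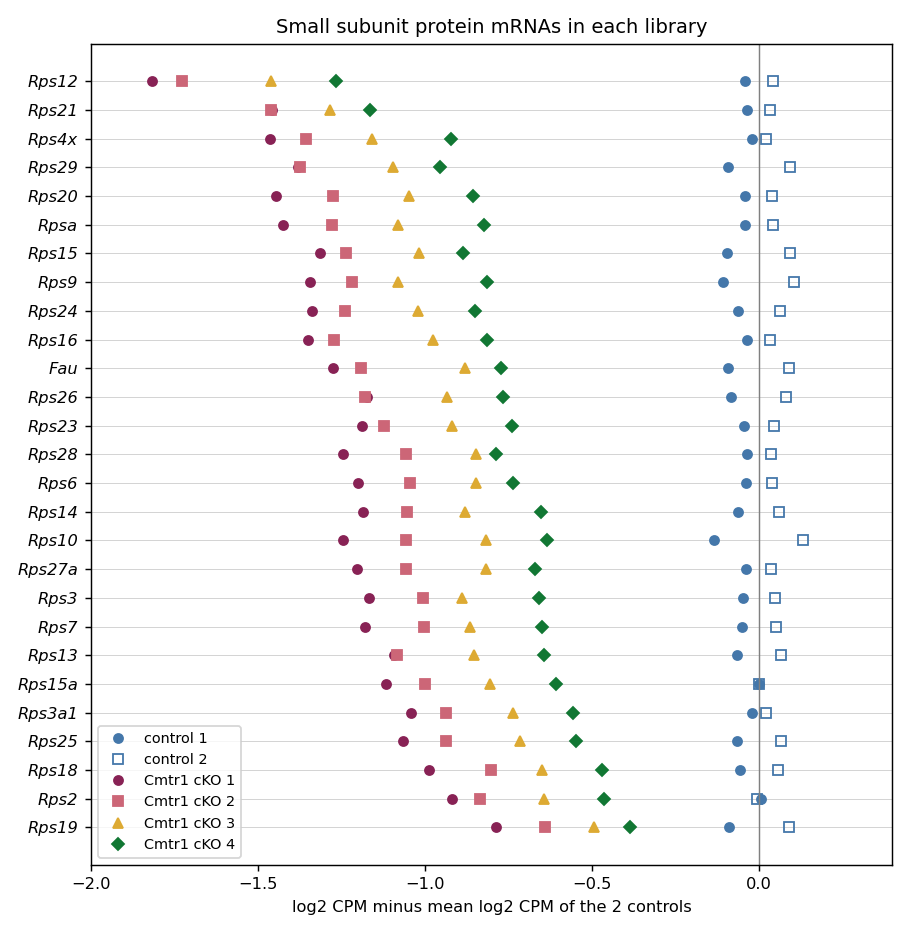
Each point is 1 library: log2 CPM of a member minus its mean log2 CPM in the 2 controls (x axis), with the 27 members ordered by fold change (y axis). All 4 Cmtr1 cKO libraries lie below both controls in every row, and Cmtr1 cKO 4 is nearest to the controls in 27 of 27 rows.

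The depth of the fall differed between the Cmtr1 cKO libraries. Members made up 2.68% and 2.78% of gene counts in controls 1 and 2 (95% Wilson intervals 2.67% to 2.69% and 2.77% to 2.79%, counting error only). In Cmtr1 cKO 1, 2, 3 and 4 they made up 1.30%, 1.41%, 1.52% and 1.76%, with intervals that did not overlap. Without rRNA genes the share in Cmtr1 cKO 3 was 1.595%. The median over the members of log2 CPM against the control mean was -1.20, -1.08, -0.88 and -0.74 in these 4 libraries. Cmtr1 cKO 4 was the highest of the 4 for 27 members, Cmtr1 cKO 1 the lowest for 25, and 25 members followed the whole order from Cmtr1 cKO 1 to 4.

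The portion of unique reads that fell outside exons of the counted strand (below, outside exons) moved with this order. Reads that lie opposite an exon are part of it. This portion was 37.2% and 34.0% in controls 1 and 2 and 52.3%, 51.6%, 46.7% and 38.0% in Cmtr1 cKO 1 to 4. Gene counts on the other strand were 1707028 in Cmtr1 cKO 3, against 490432 (control 2) to 551462 (Cmtr1 cKO 2) in the other libraries. The value of Cmtr1 cKO 3 is therefore raised by such reads, and a portion without them was not computed. In Cmtr1 cKO 4 that share was close to control 1, and all 27 members were below both controls, by 0.39 (Rps19) to 1.27 (Rps12) on the log2 scale against the control mean. With that portion as a covariate 27 of 27 members were called lower, at a median log2 fold change of -0.63. Reads that map to several places, which the counting leaves out, were 9.51% and 10.5% of all reads in the controls and 6.42% to 8.92% in Cmtr1 cKO. What part multimapping or reads outside exons had in the fall was not tested beyond these values.

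**Figure D2:**
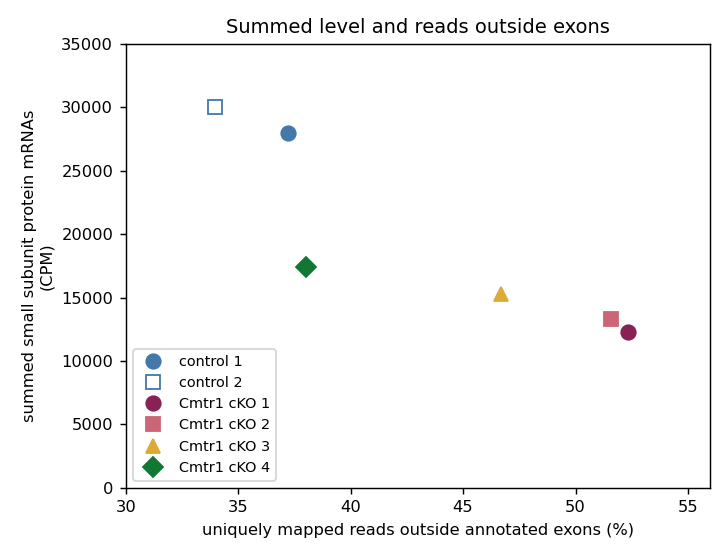
Summed level of the 27 members in CPM (y axis, from 0) against the percentage of unique reads outside exons of the counted strand (x axis), 1 point a library. The controls lie at 27989 and 30056 CPM, and Cmtr1 cKO 4 lies at 17406 CPM with a share of 38.0%, next to control 1 at 37.2%.

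The mRNAs for proteins of the subunit's head, which carries the beak and contacts the tRNAs, fell in all 12 cases (median log2 fold change -0.95, -1.55 to -0.57). Those for proteins of the body and platform, around the mRNA channel, fell in all 15 (median -0.98, -1.34 to -0.70). The summed head mRNAs went from 10746.5 ± 657 to 5465 ± 839 CPM (SD) and those of body and platform from 18276 ± 804 to 9109 ± 1424 CPM (SD). The ranges of fold changes overlapped.

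Rps12, which encodes a protein of the beak, fell the most. It had 1001 and 1061 CPM in controls 1 and 2, against 292, 311, 375 and 428 CPM in Cmtr1 cKO 1 to 4. Its highest Cmtr1 cKO library was far below its lowest control. By edgeR it fell by 1.55 ± 0.13 (SE, adjusted p = 0.000119) on the log2 scale, to a level of 0.341 of the control. Rps12 (ENSMUSG00000061983.6) lies on chromosome 10, 23785183 to 23787275, minus strand, GRCm38. The mRNAs for the other beak proteins fell less. Rps10, whose protein the ubiquitin ligase ZNF598 modifies on collided ribosomes, went from 599 ± 78.1 to 315 ± 58.1 CPM (SD, log2 fold change -0.93 ± 0.15, SE). Of the exon bases of Rps10, 20.6% are shared with the read-through gene RPS10-NUDT3.

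Rps27a, the third beak gene, is translated as a fusion of ubiquitin with the ribosomal protein, which is then cut free. It had 609.5 and 642 CPM in controls 1 and 2, against 272, 301, 355 and 393 CPM in Cmtr1 cKO 1 to 4 (log2 fold change -0.92 ± 0.12, SE, edgeR adjusted p = 0.00141). Fau is built in the same way, as a fusion of the ubiquitin-like protein FUBI with ribosomal protein S30 of the body. Fau had 497 and 564 CPM in controls 1 and 2, against 219, 232, 288 and 310.2 CPM in Cmtr1 cKO 1 to 4 (log2 fold change -1.02 ± 0.13, SE, adjusted p = 0.00112). In both fusions the groups were well apart, and the Cmtr1 cKO libraries kept the order described above.

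Among the other head proteins, Rps29, a small zinc-binding protein, had 733 and 833 CPM in controls 1 and 2, against 300.5, 302, 366 and 403 CPM in Cmtr1 cKO 1 to 4 (log2 fold change -1.19 ± 0.12, SE). Rps20, another ZNF598 substrate, had 837 and 885 CPM against 316, 355, 416 and 475 CPM (-1.14 ± 0.13, SE). Both lay below the median fold change of the set. Rps3, which lines the mRNA entry and has a separate role in DNA repair, had 1721 and 1840.5 CPM against 793, 887, 961 and 1127 CPM (-0.92 ± 0.13, SE). Rps15, beside the decoding site, fell by 1.11 and Rps16, whose tail reaches the peptidyl tRNA, by 1.09 on the log2 scale. Rps28, near the mRNA exit, fell by 0.97, from 493 ± 17.1 to 251 ± 35.5 CPM (SD).

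The head also held 3 of the 5 members that fell least. Rps19, the gene first found mutated in human Diamond-Blackfan anaemia, a failure of red cell production, had 838 and 949 CPM in controls 1 and 2, against 517, 571, 633 and 682 CPM in Cmtr1 cKO 1 to 4. It fell by 0.57 ± 0.11 (SE, adjusted p = 0.00895 by edgeR) on the log2 scale, to 0.673 of the control level. The call ended without control 1 (-0.65, adjusted p = 0.0562) or without control 2 (-0.47, adjusted p = 0.16). Rps18, which bridges to the large subunit, had 1010.0 and 1094 CPM against 530.3, 603, 671 and 759.6 CPM (-0.71 ± 0.12, SE), and this call too ended without control 1 (adjusted p = 0.0546) or control 2 (adjusted p = 0.108). Rps25, needed by several viral internal ribosome entry sites, had 647 and 709 CPM against 324, 354, 413 and 463 CPM (-0.80 ± 0.12, SE) and was not called without control 2 (adjusted p = 0.0706). The Cmtr1 cKO libraries of all 3 were below the controls without overlap.

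In the body, Rps21 (ENSMUSG00000039001.12, chromosome 2, 180257377 to 180258445, plus strand) fell the most. It had 526 and 552 CPM in controls 1 and 2, against 196, 196, 221 and 240.3 CPM in Cmtr1 cKO 1 to 4 (log2 fold change -1.34 ± 0.09, SE, edgeR adjusted p = 2.42e-05). Rps4x, the X-linked form of a body protein, had 1627 and 1674 CPM against 598, 644, 739.6 and 872 CPM (-1.21 ± 0.13, SE). Rpsa, known also as the laminin receptor and placed at the mRNA exit, had 2801 and 2966 CPM, and 1075, 1189, 1363 and 1629.8 CPM in Cmtr1 cKO 1 to 4 (-1.13 ± 0.15, SE). All 3 were apart from the controls in each library.

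Rps6, the substrate of the S6 kinases downstream of mTORC1, lay near the middle of the set. It had 779 and 823 CPM in controls 1 and 2, against 349, 388, 445 and 481 CPM in Cmtr1 cKO 1 to 4 (log2 fold change -0.95 ± 0.11, SE, edgeR adjusted p = 0.000599). Rps26, which contacts the mRNA upstream of the start codon, had 605 and 677 CPM against 284, 283, 335 and 376 CPM (0.499 of the control level). In both, the groups were apart, and neither passed the test relative to the set that is described further on. Rps9, at the mRNA entry, and Rps24, mutated in some Diamond-Blackfan anaemia, fell by 1.10 each on the log2 scale. Rps23 of the decoding centre fell by 0.98, and Rps14 of the platform, lost in a human myelodysplastic syndrome, by 0.93. Rps7 and Rps13, the latter part of a bridge to the large subunit, fell by 0.91 each and Rps15a of the body by 0.87.

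Rps2 and Rps3a1 fell least among the mRNAs for proteins of the body and platform. Rps2, at the mRNA entry, had 1181 and 1171 CPM in controls 1 and 2, against 622, 659.5, 753 and 852 CPM in Cmtr1 cKO 1 to 4 (log2 fold change -0.70 ± 0.12, SE, edgeR adjusted p = 0.00453). Rps3a1, of the platform, had 1620.3 and 1668 CPM against 799, 859.5, 987 and 1118 CPM (-0.81 ± 0.13, SE). No library of either overlapped between genotypes. With control 1 left out Rps2 was not called (adjusted p = 0.0689), and with control 2 left out neither Rps2 (0.0738), Rps3a1 (0.0691) nor Rps10 (0.0768) was, by edgeR adjusted p.

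To ask which members fell more or less than the set, the same test was run with each library scaled to the summed counts of the 27 members. On that scale 2 members were lower and 1 higher in Cmtr1 cKO, and 24 did not pass. Of all 12748 genes 0.0941% were called lower and 88.8% higher on it, a scale on which a gene that kept its TMM-scaled level comes out higher. With so many genes called, adjusting over all of them changed the p-values little. The unadjusted edgeR p was 0.00105 for Rps12, 0.0354 for Rps21 and 0.00885 for Rps19. No adjustment over the 27 members alone was made, so the calls of Rps21 and Rps19 are weak. Rps12 fell from 3.58% and 3.53% of the members' counts in the controls to 2.38%, 2.34%, 2.45% and 2.46% in Cmtr1 cKO 1 to 4 (log2 fold change relative to the members -0.56 ± 0.13, SE, edgeR adjusted p = 0.00168). Its share was nearly the same in the 4 Cmtr1 cKO libraries. Rps21 went from 1.88% and 1.84% to 1.60%, 1.47%, 1.45% and 1.38% (-0.33 ± 0.14, SE, adjusted p = 0.0403).

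Rps19 moved the other way, from 2.99% and 3.16% of the members' counts to 4.21%, 4.29%, 4.14% and 3.92% (relative log2 fold change 0.43 ± 0.14, SE, edgeR adjusted p = 0.011). The groups did not overlap for any of the 3, but this does not set them apart. Shares were also without overlap for members that did not pass. Rps4x had 5.81% and 5.57% in controls 1 and 2 against 4.84% to 5.01% in Cmtr1 cKO. Rps3a1 had 5.79% and 5.55% against 6.43% to 6.50%. For others, such as Fau, the shares overlapped. Over the 10 alternatives tried for this scale Rps12 was called in 10, at -0.59 to -0.52, Rps19 in 7 and Rps21 in 5. Rps21 lost its call without control 1 or 2 (adjusted p = 0.203 and 0.165) and without Cmtr1 cKO 2 or 3 (0.106 each), and Rps19 without control 1 or 2 (0.125 and 0.0769). Without the filter on low counts neither Rps19 (0.0535) nor Rps21 (0.125) passed. Rps2 (0.29 ± 0.14, SE, adjusted p = 0.0644) and Rps18 (0.28 ± 0.14, SE, adjusted p = 0.0688) did not pass, and passed without Cmtr1 cKO 1 (adjusted p = 0.039 and 0.0317).

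**Figure D3:**
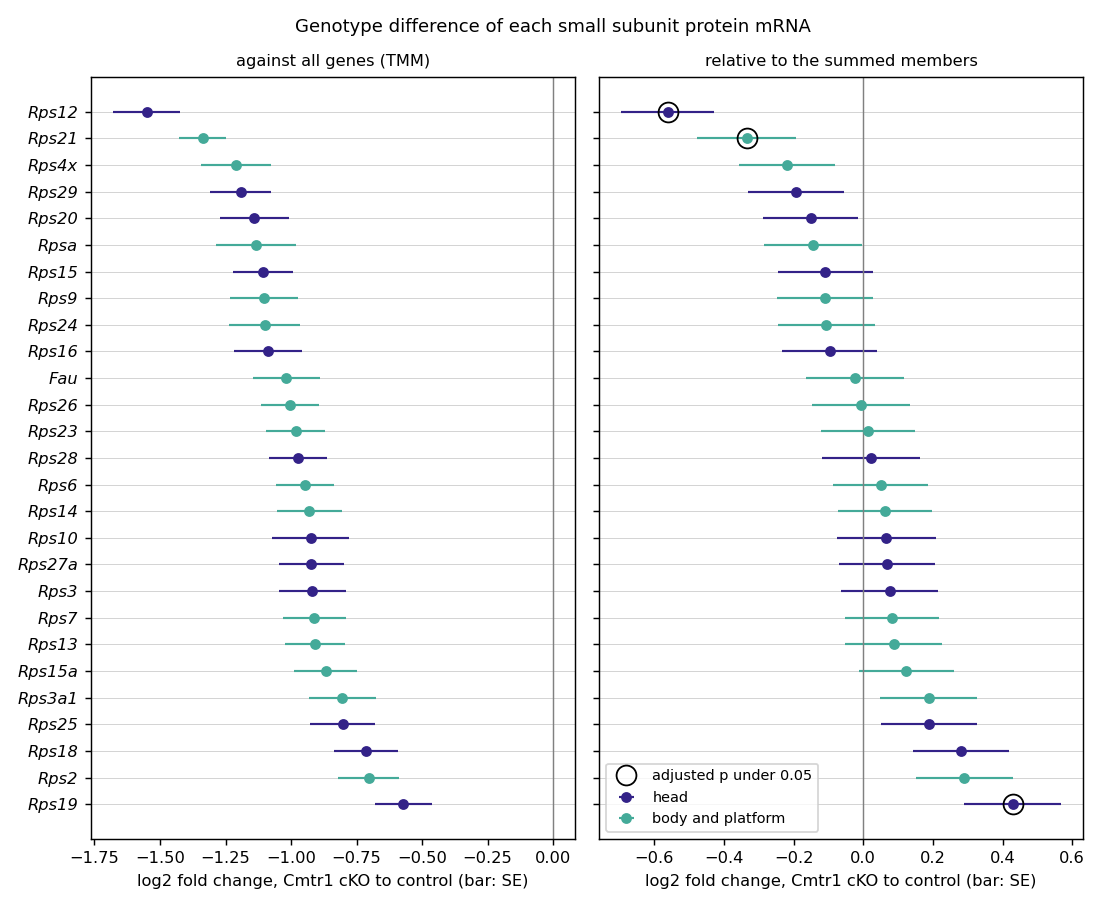
Log2 fold change of each member from control to Cmtr1 cKO with its standard error, scaled with TMM factors (left) and to the summed counts of the 27 members (right). All 27 lie below 0 on the left, while on the right circles mark Rps12 (-0.56) and Rps21 (-0.33) as lower and Rps19 (0.43) as higher than the set, at an adjusted p under 0.05.

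**Figure D4:**
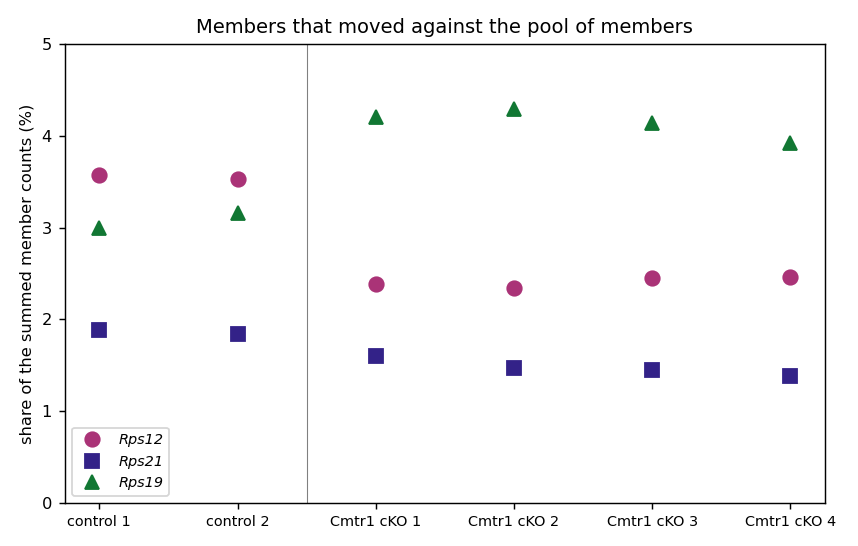
Percentage of the summed member counts held by Rps12, Rps21 and Rps19 in each of the 6 libraries (y axis from 0). Rps12 is at 3.53% or more in the controls and at 2.46% or less in Cmtr1 cKO, and Rps19 goes from at most 3.16% to at least 3.92%.

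Read mapping sets a limit on these differences between members. Of the windows of 50 bases in the principal transcript, 2.96% (Rps3) to 92.4% (Rps10) also occur in transcripts of other annotated genes, and 90.1% did for Rps12, 53.6% for Rps19 and 26.4% for Rps21. A read that aligns equally well to several places enters no gene's count. Reads in exons shared by genes on the same strand, as with Rps10 and RPS10-NUDT3, can also be left uncounted. The counts of such members therefore draw on part of the mRNA. Of the exon bases of Rps12, 13.7% also overlap small nucleolar RNA genes, and 24.8% of those of Rps25 lie opposite exons of Ccdc84 and Trappc4. Annotated exons span 4685 bases in Rps19 against 633 in its principal transcript. Across the 27 members the fold change went with the ratio of these lengths at Spearman rho = 0.43. The rho was 0.31 with the share of windows found in other genes, 0.042 with GC content and 0.0018 with control CPM (n = 27 genes, which share the same 6 libraries).

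Small nucleolar RNAs are encoded inside several members; they guide the modification of rRNA and are mostly released from the spliced-out introns of the host. By coordinates 14 annotated genes of this class lie in members on the same strand, of which 10 passed the filter and 4 had 0 counts in every library. Those 4 (Gm24016, Snord15b, Snord14a and Snora64) lie wholly within annotated exons of their hosts. Reads that overlap both genes can be left uncounted there, so 0 counts do not show that the RNA was absent. The Rpsa intron RNA Gm26448 had 93.2 and 110.2 CPM in controls 1 and 2, against 51.4, 47.0, 52.2 and 61.6 CPM in Cmtr1 cKO 1 to 4 (log2 fold change -0.94 ± 0.10, SE, edgeR adjusted p = 0.000495), beside -1.13 for Rpsa itself. Gm24044, also in Rpsa, fell by 1.06 (adjusted p = 0.00896), but all its bases lie in annotated exons of Rpsa. Snord100 in Rps12 fell by 1.48 (adjusted p = 0.0355), with 4 to 24 counts a library and all bases within exons of Rps12. The other 7 were not called: Snora62 in Rpsa (-1.08), AF357399 in Rps16 (-0.74), Snord15a in Rps3 (-0.69), Gm23130 (-0.19) and Snora33 (-0.11) in Rps12, and Snord73a (-0.13) and Rnu73b (0.02) in Rps3a1. These 7 had 8 to 97 counts a library, and Snora33 and Gm23130 lie within annotated exons of Rps12.

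The neighbours of the set in the ribosome fell with it. Rps27, a zinc-binding protein of the small subunit, was called lower (-1.14 ± 0.13, SE), as was Rack1, the scaffold protein on the head that binds signalling kinases (-0.64 ± 0.13, SE). Of 47 large subunit genes 45 were lower and 0 higher, from Rplp1 of the stalk (-1.41) to Rpl27 (-0.58), with a median of -0.95 beside -0.97 for the small subunit set. Rpl24 (-0.04), named after its value was seen, was not called. The summed large subunit mRNAs went from 42806 ± 2292 to 21902 ± 3432 CPM (SD). The medians by library were -1.17, -1.07, -0.87 and -0.68 in Cmtr1 cKO 1 to 4 for the large subunit, and the difference between the subunits was not tested.

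Genes for the mitochondrial small subunit, which are nuclear genes whose products work in another ribosome, did not move in that way. Of 31, 0 were lower and 1 was higher by edgeR, Ptcd3 (0.51 ± 0.07, SE), an RNA-binding protein of that subunit, and the median was -0.031. Their summed level was 927 ± 5.72 CPM (SD) in the controls and 978 ± 21.0 CPM (SD) in Cmtr1 cKO. Factors that build the cytosolic small subunit, such as the rRNA processing proteins of the nucleolus, were higher for 3 of 50 and lower for 0, with a median of 0.028, and that 6% is near the 4.66% of all genes tested that were called higher. Nop14 rose by 0.46 and Utp18 by 0.28 on the log2 scale, as did Nat10, an RNA acetyltransferase, by 0.46 (named after its value was seen). The dedicated carriers of single members, Tsr2 for Rps26 (0.16 ± 0.12, SE) and Pdcd2 (0.04) and Pdcd2l (0.03) for Rps2, were not called.

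Of all genes tested 6.77% were called lower and 4.66% higher, and the lists that follow were not tested against these shares. Of 25 tested initiation and recycling factors that act on the small subunit 4 were lower (16%) and 1 higher (4%), with a median of -0.038. The lower ones were 4 of the 13 tested subunits of eIF3, the complex that holds the small subunit during scanning: Eif3f (-0.62 ± 0.12, SE) and, named after their values were seen, Eif3h (-0.51), Eif3k (-0.51) and Eif3i (-0.40). The other 9 subunits were not called, with values from -0.19 (Eif3e) to 0.16 (Eif3g). Denr, which recycles the subunit after termination, rose by 0.35. Among 10 genes that tag, rescue or store stalled small subunits, Hbs1l, a ribosome rescue GTPase, rose by 0.40, G3bp1 of stress granules fell by 0.36, and Zfp598, the mouse ZNF598, had 0.20 and was not called. Of the S6 kinases and Larp1, Rps6kb1 rose by 0.33 ± 0.08 (SE, edgeR adjusted p = 0.03), while Larp1 (-0.06), Rps6kb2 (0.24), Rps6ka1 (-0.23) and Rps6ka3 (-0.08) were not called.

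**Figure D5:**
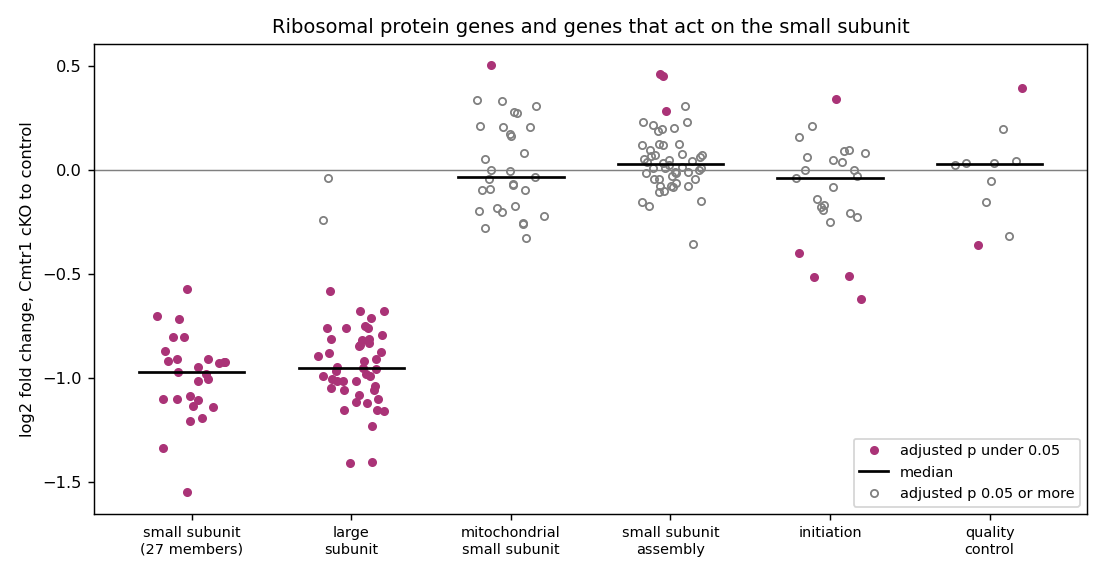
Log2 fold change from control to Cmtr1 cKO (y axis) of each gene in 6 lists, with filled points at an adjusted p under 0.05 and a bar at the median. The small subunit set and the large subunit lie at medians of -0.97 and -0.95, while the mitochondrial, assembly, initiation and quality control lists have medians between -0.038 and 0.029.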

How the data were processed

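The authors deposited whole-number read counts per gene for each library, in the layout of STAR's gene table, with 1 unstranded and 2 stranded columns. The submitters' processing notes list STAR 2.5.2b and edgeR with the build GRCm38 (mm10); which gene annotation was counted on is not given here. Per the labels' protocols, RNA was prepared with Trizol and libraries with an Illumina TruSeq kit after Ribo-Zero Gold depletion. The stranded column with 5.57 to 22.7 times the counts of the other was used. The 4 rows that name no gene held 52.1% to 62.0% of reads and were left out.

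Identifiers were matched without version to GENCODE vM21 on GRCm38 (98.9% of 46983). Genes kept by filterByExpr (12748) were scaled with TMM factors and tested for genotype alone with edgeR 4.0.16 in R 4.3.3 (glmQLFit with robust settings, glmQLFTest, Benjamini-Hochberg over all genes tested), with calls at an adjusted p under 0.05. SE is the log2 fold change divided by the square root of F. DESeq2 1.42.0 was an alternative. The code was tested on simulated data. No 2 libraries were within sampling noise, but they were unequally alike. A chi-square per degree of freedom over genes, larger where 2 libraries differ more, was 1.87 for Cmtr1 cKO 1 and 2. It was 6.19 for the 2 controls and 17.7 to 49.4 for the other pairs of Cmtr1 cKO libraries. Between Cmtr1 cKO 4 and controls 1 and 2 it was 16.5 and 18.9. Whether Cmtr1 cKO 1 and 2 are independent was not stated. Values in every library are given for the 5 lowest and 5 highest fold changes, members called relative to the set, and 7 members chosen for their roles; of the other lists the lowest and highest called gene, or any gene of lists of at most 10, could be named. Some genes are not reported here. Members, lists and tests were chosen with earlier results of these data known.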

Additional observations from a re-analysis of the deposited data

How the results depend on the processing

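The fall of the 27 members held its direction for each member in 15 alternatives. DESeq2, its size factors, TMM factors from other genes, no filter, unstranded counts, protein-coding genes only and a length and GC trend removed per library each called 27 lower and 0 higher, with medians of -0.99 to -0.94. As a covariate, the portion of reads outside exons moved the median to -0.63 (27 lower). With 1 library left out 21 to 27 were lower and 0 higher, the fewest without control 2 (21) and control 1 (24), where the lone control is assumed to vary like the other group. With the replicate number as a block 27 were lower, at a median of -1.15. Numbers 1 and 2 are the only ones the groups share, and the correlation of deviations from the group mean was 0.13 and -0.13. The deviations of 2 controls mirror each other, so these values cannot decide whether the numbers pair libraries. The numbers are not said to mark pairs and are not taken to do so. Relative to the summed members (2 lower, 1 higher), no filter gave 1 and 0, the covariate 2 and 2, the replicate block 8 and 5, and leaving out 1 library 1 to 2 lower and 0 to 3 higher; the cause was not tested. Depth was not limiting for members, but small nucleolar RNAs had few counts.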
